A study of Mus musculus with 16 samples.

Results

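The expression of 10 genes of lipid droplets and of the first step of lipolysis was followed through normal mouse liver, liver next to tumours and liver tumours. The genes were taken by name: the perilipins Plin2, Plin3, Plin4 and Plin5, the CIDE proteins Cidea, Cideb and Cidec, the triglyceride lipase Pnpla2 with its inhibitor G0s2, and Fitm1. The list was chosen with earlier results of these data known, so its counts beside the shares of all genes are a description. Each of the 10 had 1 probe set, of 23279 named genes on the array.

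Lipid droplets store triglycerides and sterol esters in a core that is covered by a single layer of phospholipid. Perilipins coat that surface and control which enzymes reach the core, CIDE proteins act where droplets touch and promote their fusion and growth, and FIT proteins of the endoplasmic reticulum help droplets to form. Adipose triglyceride lipase, the product of Pnpla2, takes the first fatty acid off a triglyceride; G0s2 binds and inhibits it. In hepatocytes Plin2 is the main droplet coat, and Cidea and Cidec, low in normal liver, are known to increase in fatty liver.

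All mice were male and 16 months old. The 3 controls (mice 10, 11 and 12) were livers of mice without the deletion; whether they carried the floxed allele or the Cre transgene is not given in the sources used here, nor is the strain. Deleted mice were bred from Axin1 fl/fl animals with Alfp-Cre, which is active in embryonic hepatocytes; which cells of these livers still carry Axin1 was not measured. Adjacent non-tumoral liver came from 5 such mice (81, 121, 123, 124 and 1931) and 8 tumours from 6 (81, 90, 93, 121, 123 and 124). Mouse 121 gave 3 tumours, an unnumbered one and those numbered 2 and 3, which were averaged in every mean and test, and 4 mice gave both tissues. Values are log2 expression, in which 1 unit is a factor of 2, and the number of arrays limits their precision. Differences were tested with limma over all named genes, with Benjamini-Hochberg adjustment, and a gene was called at an adjusted p under 0.05.

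Axin1, the deleted gene, averaged 5.26 ± 0.20 (SD) over the 3 control mice, 4.21 ± 0.21 over the 5 adjacent livers and 4.44 ± 0.31 over the 6 tumour mice; which exons its probe set covers is not given in the sources used here. The mean of 9 hepatocyte markers lay between 11.1 and 11.5 on every array. The mean of 10 macrophage markers was 7.91 in control 10, against 5.39 to 6.73 on the other 15 arrays. In bulk tissue, fewer cells of a type and less RNA per cell cannot be told apart.

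None of the 10 genes was called in any of the 3 comparisons. Adjacent liver against control had 0 called genes of any kind (0%), tumour against adjacent liver 36 (0.155%) and tumour against control 6 (0.0258%). The group means, given as a description, were ordered in several ways. Those of Plin2 and Cidec lay above control by like amounts in adjacent liver and in tumours. Those of Plin4, Plin5 and G0s2 lay above control in adjacent liver and near it in tumours. Plin3 had like means in control and adjacent liver and a higher mean in tumours, and Fitm1 was low in some tumours and not in others.

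**Figure D1:**
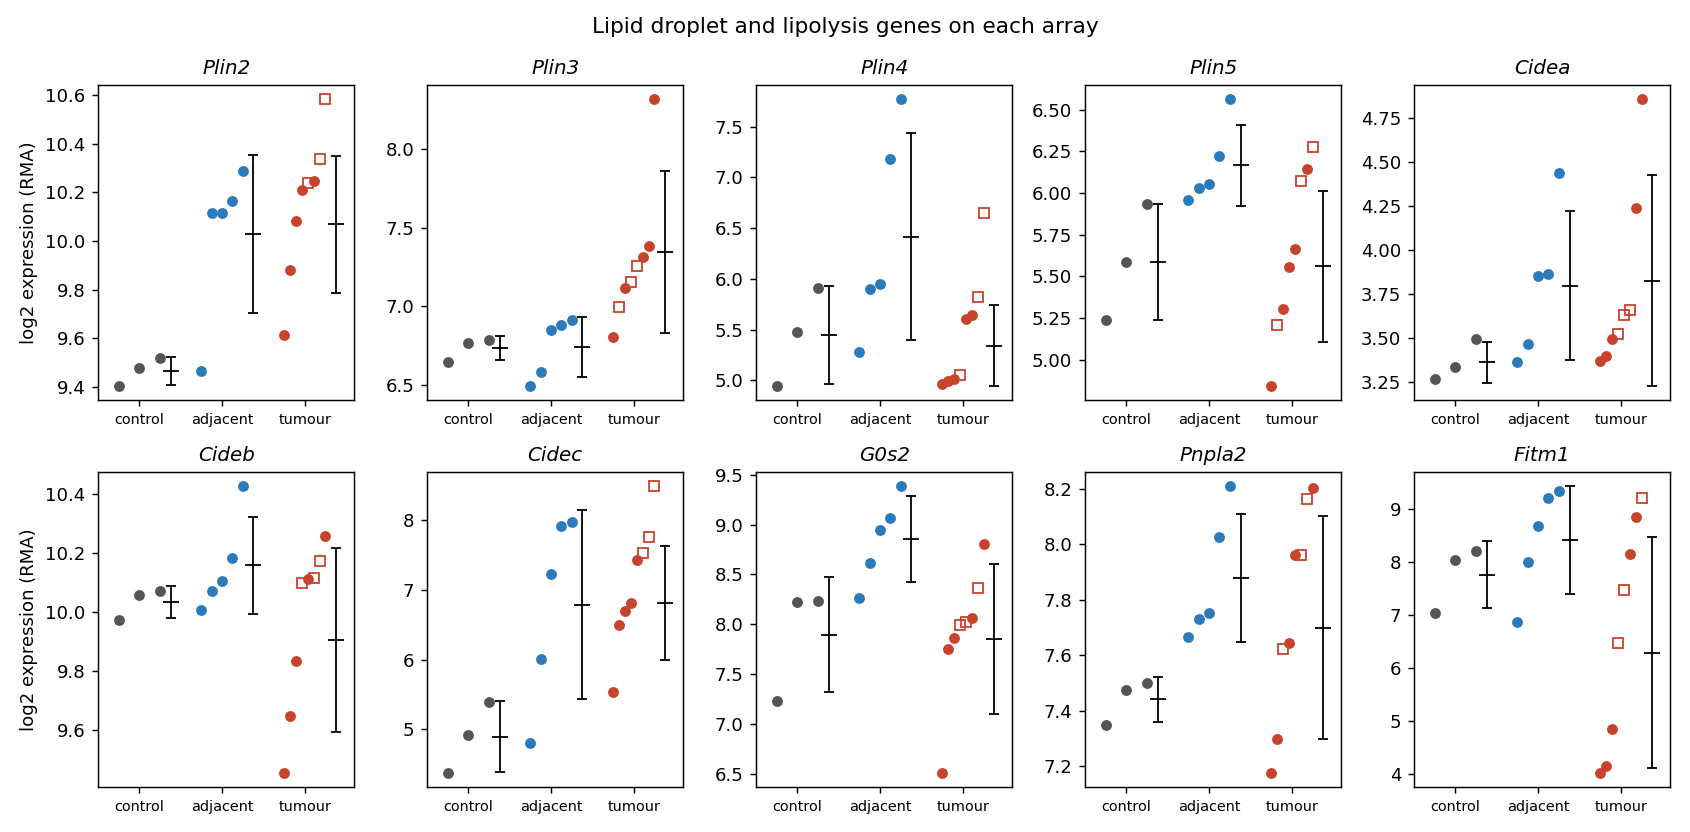
Log2 expression of the 10 genes (y axis, RMA values, a separate scale for each gene) on every array of control liver, adjacent liver and tumours; open squares are the 3 tumours of mouse 121, and the bars give the mean ± SD over 3, 5 and 6 mice. The lowest tumour value of Cidec, 5.54, lies above the highest control value, 5.39, whereas Fitm1 spreads from 4.03 to 9.21 over the tumours.

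Against control liver, all 10 genes had a positive difference in adjacent liver, with a median of 0.57 on the log2 scale against -0.01 over all genes, of which 48.5% lay above 0. For 5 of the 10 the unadjusted p was under 0.05 with the higher value in adjacent liver (Plin2, Plin4, Plin5, Cidec and G0s2), against 1.61% of all genes. In 3 of the 10 every adjacent liver lay above every control (Plin5, G0s2 and Pnpla2), against 2.18% of all genes. These genes share the same 8 livers, so their counts are not independent of one another, and the adjusted p was 0.999 for each. The 10 were also chosen with earlier results of these data known, so the counts are no independent test.

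Plin2, the perilipin that coats most hepatocyte droplets, was measured at 9.52, 9.40 and 9.48 in the controls. In adjacent liver it was 10.12 in mouse 81, 10.29 in mouse 121, 10.11 in mouse 123, 9.46 in mouse 124 and 10.16 in mouse 1931. Over the tumours the lowest value was 9.61, the median 10.22 and the highest 10.58. Adjacent liver of mouse 124 lay among the controls; the other 4 adjacent livers and all 8 tumours lay above the highest control. The difference from control was 0.56 (SE 0.19) in adjacent liver and 0.60 (SE 0.19, 1.52-fold, adjusted p = 0.196) in tumours. Without adjacent 124 the first of these was 0.70.

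Cidec, which enlarges droplets by moving lipid from smaller into larger ones, spanned the widest range of the perilipin and CIDE genes. Its controls were at 4.92, 4.38 and 5.39. Adjacent liver was at 7.97 in mouse 81, 7.92 in mouse 121, 6.01 in mouse 123, 4.81 in mouse 124 and 7.23 in mouse 1931. As for Plin2, the liver of mouse 124 was the only adjacent liver within the range of the controls. The tumours had a lowest value of 5.54, in mouse 90, a median of 7.12 and a highest of 8.49, in the unnumbered tumour of mouse 121, so tumours and controls did not overlap. The log2 difference from control was 1.89 (SE 0.65, 3.71-fold, 95% interval 0.51 to 3.28) in adjacent liver and 1.92 (SE 0.63, 3.79-fold, 95% interval 0.58 to 3.26, adjusted p = 0.217) in tumours. Without adjacent 124 the adjacent difference was 2.39, and without adjacent 81 it was 1.60.

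Tumours and adjacent liver had nearly the same means for both genes, with a difference of 0.04 (SE 0.16, 95% interval -0.30 to 0.38) for Plin2 and 0.03 (SE 0.54, 95% interval -1.12 to 1.18) for Cidec. Both signs depend on single mice: without adjacent 124 the values were -0.10 and -0.47. Over the 14 mouse values, which include 4 mice in both tissues, Plin2 and Cidec correlated at r = 0.868, the highest of the 45 pairs among these genes; over the 6 tumour mice r was 0.66.

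Because these 2 genes went together, their promoter sequence is shown, taken from RefSeq (build GRCm38.p6). Each run is read 5′ to 3′ on the minus strand and ends where the annotated gene begins, at chr4:86670218-86670309 for Plin2 and chr6:113435761-113436010 for Cidec. Capitals mark AGGTCA, the half-site of nuclear receptors such as PPARs, or its reverse complement TGACCT.
Plin2: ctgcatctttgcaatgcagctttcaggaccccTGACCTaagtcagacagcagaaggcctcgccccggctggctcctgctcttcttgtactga
Cidec: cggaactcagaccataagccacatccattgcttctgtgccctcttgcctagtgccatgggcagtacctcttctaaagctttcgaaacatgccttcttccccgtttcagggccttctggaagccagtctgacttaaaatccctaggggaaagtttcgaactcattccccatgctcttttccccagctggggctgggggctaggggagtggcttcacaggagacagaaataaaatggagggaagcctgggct
The Plin2 stretch holds 1 half-site, with 54 bases between it and the annotated start, and the Cidec stretch holds none. On both strands of the 300-base promoter windows, which run from 250 bases before a start to 50 after it, AGGTCA occurs in 16.3% of 32851 windows. An exact pair of these half-sites in the same direction with 1 base between them, the consensus form of the PPAR element, occurs in 0.0396%. None of the 11 windows of 9 of these genes holds the pair, and Cidea has no window used here. So rare a pair would seldom be met in 11 windows, so its absence says little about these genes. The E-box CACGTG lies in the Plin2 window and in 7.15% of all windows. A match of letters is not a measured binding site.

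**Figure D2:**
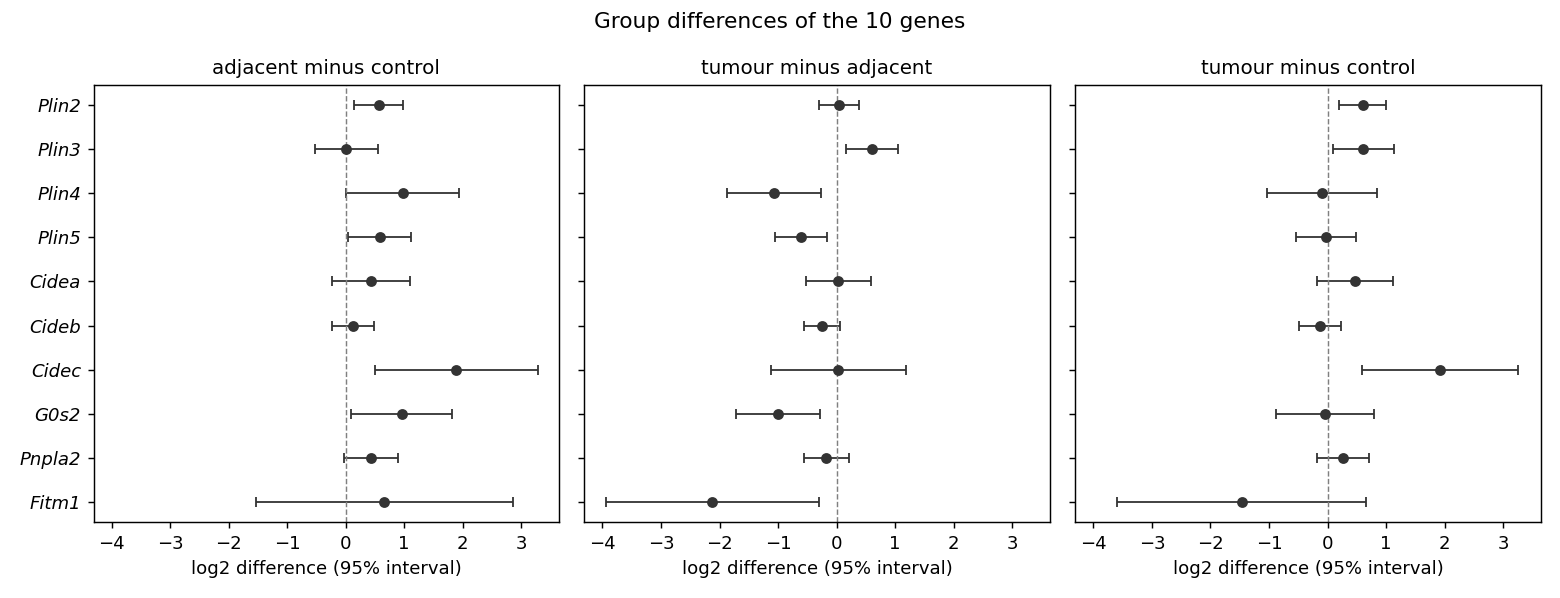
Log2 differences between groups for the 10 genes (x axis, points, with 95% intervals of the limma fit as bars); the dashed line marks 0. Cidec lies at 1.89 and 1.92 against control in the left and right panels and at 0.03 between tumour and adjacent liver.

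Plin4, Plin5 and G0s2 had their highest group mean in adjacent liver, as had Cideb, Pnpla2 and Fitm1, described further below. Plin5 tethers droplets to mitochondria and belongs with tissues that burn fat, and Plin4 coats small nascent droplets in fat cells. G0s2 was at 7.23, 8.23 and 8.23 in the controls and at 9.39, 8.61, 8.94, 8.26 and 9.06 in the adjacent livers of mice 81, 121, 123, 124 and 1931. Each adjacent liver lay above each control, although that of mouse 124 did so by a small margin. In tumours the lowest value was 6.52, in mouse 90, the median 8.01 and the highest 8.81, in mouse 93.

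The difference of G0s2 was 0.96 (SE 0.40, 1.94-fold) between adjacent and control liver and -0.996 (SE 0.335, adjusted p = 0.168) between tumour and adjacent liver. Between tumour and control it was -0.04 (SE 0.39, 95% interval -0.88 to 0.80). These comparisons share samples, the first 2 of them the adjacent livers, so their opposite signs are not separate observations. Control 10, with the high macrophage markers, had the lowest control value; without it the adjacent difference was 0.62. Without tumour 93 the tumour difference from adjacent liver was -1.19 (adjusted p = 0.0569), and without tumour 90 it was -0.73; over all settings its adjusted p ran from 0.0569 to 0.325.

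Plin5 was at 5.24, 5.59 and 5.94 in the controls and at 6.56, 6.22, 6.03, 5.96 and 6.05 in the adjacent livers of mice 81, 121, 123, 124 and 1931, again without overlap. Tumours ran from 4.84, in mouse 123, over a median of 5.61 to 6.27, in tumour 3 of mouse 121. The difference was 0.58 (SE 0.25) between adjacent and control liver, -0.61 (SE 0.21, adjusted p = 0.174) between tumour and adjacent liver and -0.03 (SE 0.24, 95% interval -0.55 to 0.49) between tumour and control. Without control 10, the lowest control, the first value was 0.40.

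Plin4 was at 5.91, 4.95 and 5.48 in the controls. Its adjacent livers were far apart, with 7.77 in mouse 81, 7.18 in mouse 121, 5.95 in mouse 123, 5.90 in mouse 124 and 5.28 in mouse 1931. Mice 81 and 121 were well above the controls, mouse 123 barely so, and the rest lay within their range. Tumours had a lowest value of 4.96, a median of 5.33 and a highest of 6.65, in tumour 3 of mouse 121, and all others lay within the range of the controls. The differences were 0.97 (SE 0.45) between adjacent and control liver, -1.07 (SE 0.38, 2.10-fold, adjusted p = 0.183) between tumour and adjacent liver and -0.10 (SE 0.44) between tumour and control. Without adjacent 81 the first was 0.63 and the second -0.74.

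Plin4 and Plin5 are next to each other on chromosome 17, with 0 protein-coding genes between them in RefSeq, and correlated at r = 0.687 over the 14 mouse values. The means of Plin4, Plin5 and G0s2 were ordered alike, highest in adjacent liver and lowest in tumours, an order that Cideb and Fitm1 shared. The sequence before the annotated genes is given for the first 3 only, at chr17:56117607-56117798 for Plin5, chr17:56109949-56110032 for Plin4 and chr1:193273189-193273438 for G0s2. It is from the same table, on the minus strand, with AGGTCA or TGACCT in capitals.
Plin5: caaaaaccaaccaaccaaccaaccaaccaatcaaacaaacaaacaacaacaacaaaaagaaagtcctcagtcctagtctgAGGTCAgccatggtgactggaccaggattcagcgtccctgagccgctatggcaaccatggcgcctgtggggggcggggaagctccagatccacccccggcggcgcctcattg
Plin4: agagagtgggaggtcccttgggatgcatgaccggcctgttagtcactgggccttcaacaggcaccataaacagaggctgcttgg
G0s2: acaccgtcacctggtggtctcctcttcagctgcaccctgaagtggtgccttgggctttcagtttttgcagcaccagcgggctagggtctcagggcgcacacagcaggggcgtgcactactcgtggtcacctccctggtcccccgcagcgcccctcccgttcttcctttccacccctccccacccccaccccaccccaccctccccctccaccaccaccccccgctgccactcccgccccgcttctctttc
One half-site stands in the Plin5 stretch, with 106 bases between it and the annotated start. The Plin4 and G0s2 stretches hold none. The GC box GGGCGG, on either strand, was in the windows of 6 of the 9 genes (Plin2, Plin3, Plin5, Cideb, G0s2 and Pnpla2) and in 35.7% of all windows.

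Pnpla2, the lipase that G0s2 inhibits, was at 7.349, 7.476 and 7.499 in the controls. Adjacent liver was at 8.21 in mouse 81, 8.03 in mouse 121, 7.73 in mouse 123, 7.75 in mouse 124 and 7.67 in mouse 1931, all above the controls. Tumours went from 7.18 over a median of 7.80 to 8.20, on both sides of the controls. The difference was 0.44 (SE 0.215, 1.35-fold) in adjacent liver and 0.26 (SE 0.21, adjusted p = 0.654) in tumours against control, and -0.18 (SE 0.18, 95% interval -0.56 to 0.20) between tumour and adjacent liver. Without tumour 81 the last 2 values were 0.16 and -0.28; the very last was -0.07 without tumour 123, -0.10 without tumour 93 and -0.09 without adjacent 81. Enzyme and inhibitor, Pnpla2 and G0s2, correlated at r = 0.306 over the 14 mouse values and at -0.0571 over the 6 tumour mice.

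Between tumour and adjacent liver the 10 genes had a median difference of -0.22, against -0.03 over all genes. The unadjusted p was under 0.05 for 4 that were lower in tumours (Plin4, Plin5, G0s2 and Fitm1), against 8.32% of all genes, and for 1 that was higher (Plin3), against 6.95%. In none of the 10 were the groups free of overlap, which they were in 2.23% of all genes. In the 4 mice that gave both tissues, the tumour value of mouse 121 being the mean of 3, Plin4, Plin5, G0s2 and Fitm1, which are the 4 just named and rest on the same arrays, were lower in the tumour in 4 of 4 (13% of all genes were), with mean differences of -1.19 (SE 0.30), -0.60 (SE 0.18), -0.85 (SE 0.20) and -1.97 (SE 0.64). Plin2, Plin3, Cidea and Cidec were higher in the tumour in 3 of these 4 mice, Cideb in 2 and Pnpla2 in 1. With the mouse as a fixed block none of the first 4 was called (limma adjusted p = 0.208, 0.26, 0.186 and 0.289).

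**Figure D3:**
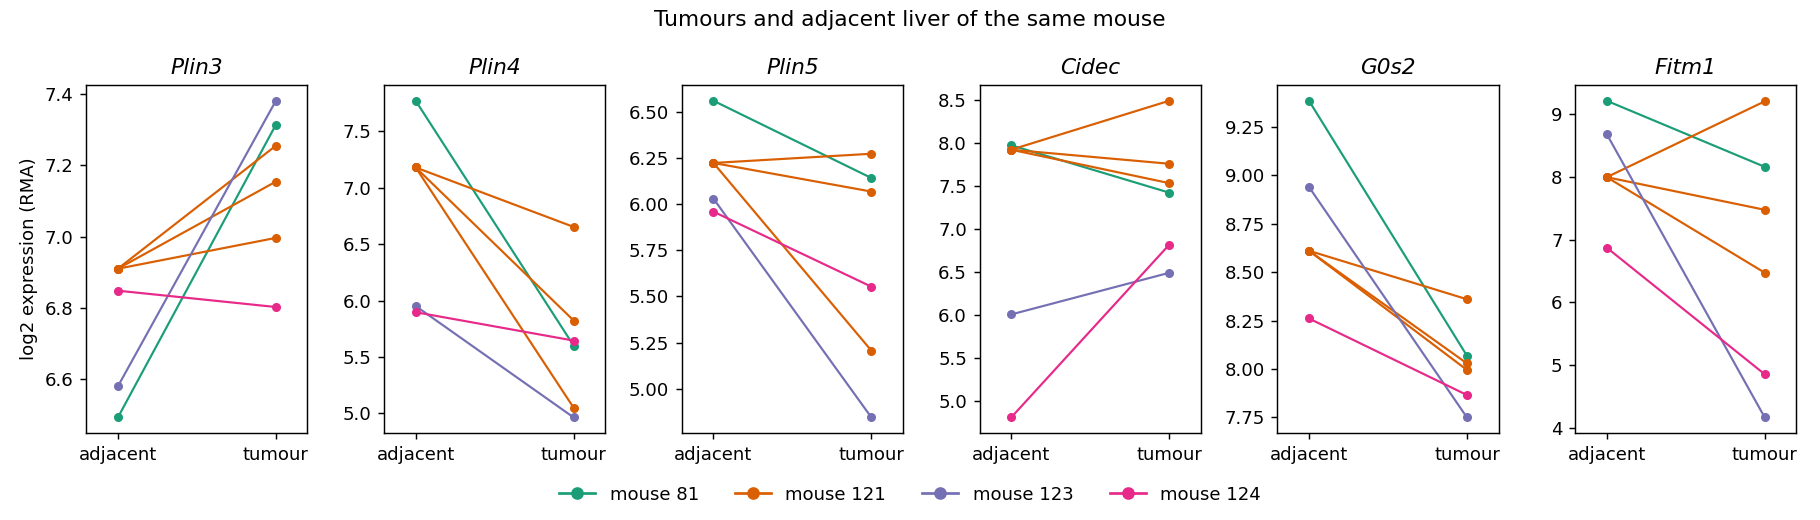
Log2 expression (y axis) of 6 of the genes in adjacent liver and in tumours of the same mouse, 1 line per tumour, coloured by mouse; mouse 121 has 3 tumours. All 6 lines slope down for Plin4 and G0s2, and for Cidec the tumour of mouse 124 lies 2.01 above its adjacent liver.

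Tumour by tumour, the lines of a mouse were not uniform. Against its own adjacent liver, G0s2 had differences of -1.32 in mouse 81, -1.19 in mouse 123 and -0.40 in mouse 124, and of -0.62, -0.25 and -0.58 in the unnumbered tumour and tumours 2 and 3 of mouse 121. Plin4 had differences of -2.17 in mouse 81, -0.99 in mouse 123 and -0.25 in mouse 124, and -2.13, -1.36 and -0.53 in the tumours of mouse 121, in the same order. Plin5 of mouse 121 was at 5.21 in the unnumbered tumour against 6.07 and 6.27 in tumours 2 and 3. For Plin4 and Plin5 the SD among the 3 tumours of this 1 mouse, 0.80 and 0.57, was larger than the SD of 0.40 and 0.45 between the tumour means of the 6 mice. For the other 8 genes it was smaller.

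Fitm1, a FIT protein best known from muscle, had the largest spread between tumours, with an SD of 2.18 over 6 mice that exceeded those of 99.8% of all genes. Controls were at 8.21, 7.04 and 8.05. Adjacent liver was at 9.22 in mouse 81, 7.998 in mouse 121, 8.68 in mouse 123, 6.87 in mouse 124 and 9.34 in mouse 1931. The tumours of mice 90, 123 and 124 were at 4.03, 4.16 and 4.85, below every control and every adjacent liver. Those of mice 81 and 93 were at 8.16 and 8.84, within the range of non-tumoral liver.

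In mouse 121 Fitm1 was at 6.47 in the unnumbered tumour, 9.21 in tumour 2 and 7.48 in tumour 3. Against their own adjacent liver the differences were -4.52 in mouse 123, -2.02 in mouse 124, -1.06 in mouse 81 and, in mouse 121, -1.53 in the unnumbered tumour, 1.21 in tumour 2 and -0.52 in tumour 3. The group difference of Fitm1 was -2.13 (SE 0.85, 4.37-fold, adjusted p = 0.244) between tumour and adjacent liver, 0.66 (SE 1.03) between adjacent and control liver and -1.47 (SE 0.99, adjusted p = 0.582) between tumour and control. Without tumour 93 the first was -2.64 (adjusted p = 0.0846) and without tumour 90 it was -1.67; over all settings its adjusted p ran from 0.0846 to 0.433. The difference between adjacent and control liver was 0.29 without control 11, 0.43 without adjacent 1931 and 1.04 without adjacent 124. Muscle markers, 7 in all, had mean levels between 3.95 and 4.34 in every group, and Ckm, Myh4 and Tnnt3 were above the median of all values, 4.45, on 0 arrays, Mb on 1, Acta1 on 10, and Myl1 and Des, the latter also of stellate cells, on 15 of 16.

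**Figure D4:**
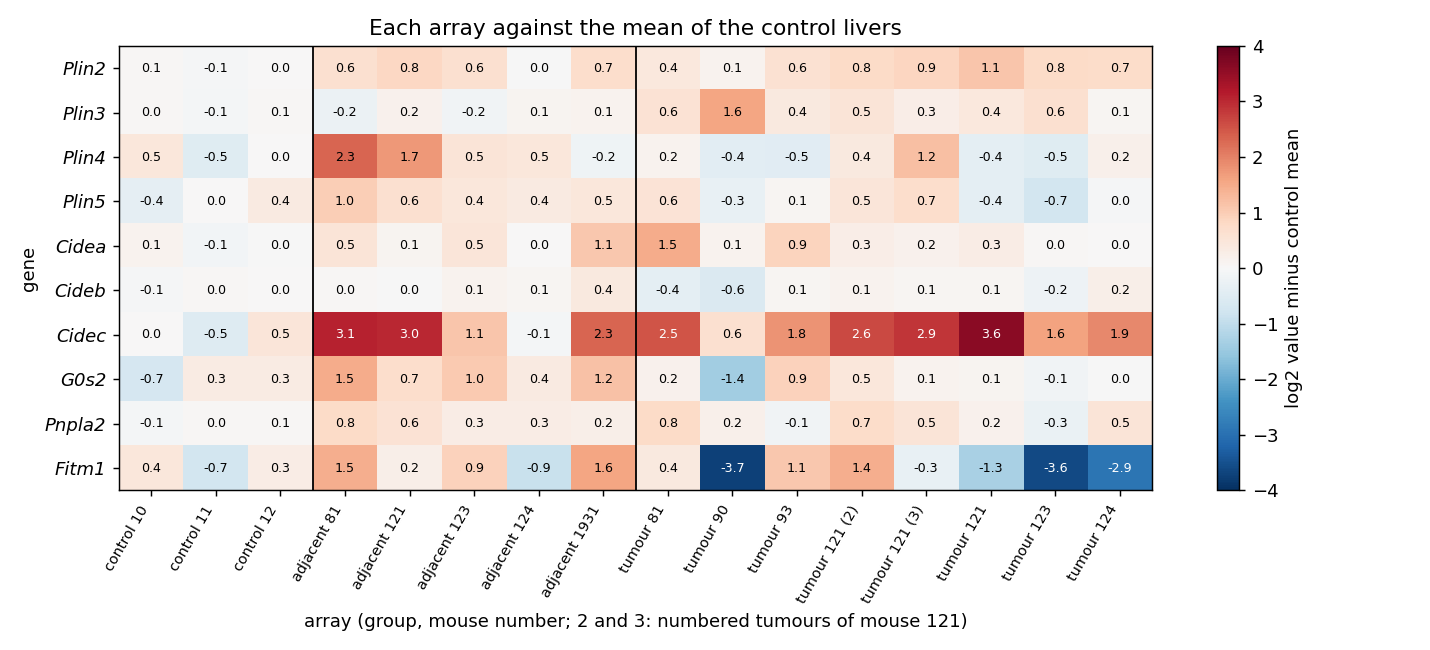
Log2 value of each gene (rows) on each array (columns) minus the mean of the 3 controls, as colour and number; vertical lines part control, adjacent and tumour arrays. The Fitm1 row holds -3.7, -3.6 and -2.9 in the tumours of mice 90, 123 and 124, and the Cidec row is above 1 in all deleted mice but adjacent 124 and tumour 90.

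Plin3, a perilipin that moves from the cytosol onto new droplets, was at 6.77, 6.64 and 6.79 in the controls and at 6.49, 6.91, 6.58, 6.85 and 6.88 in the adjacent livers of mice 81, 121, 123, 124 and 1931. Tumours had a lowest value of 6.80, a median of 7.20 and a highest of 8.32, in mouse 90. All tumours lay above all controls, the lowest narrowly, whereas tumour 124 overlapped with adjacent liver. The difference was 0.01 (SE 0.25, 95% interval -0.53 to 0.55) between adjacent and control liver, 0.60 (SE 0.21, 1.52-fold, adjusted p = 0.177) between tumour and adjacent liver and 0.61 (SE 0.24, adjusted p = 0.317) between tumour and control. Without tumour 90 the last 2 were 0.41 and 0.42. In tumour 90 Plin3 was 1.59 above the control mean while G0s2, Fitm1 and Cideb had their lowest values of all 16 arrays there.

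Cideb, the CIDE protein of normal hepatocytes that also serves VLDL lipidation, varied little among the controls. It was at 9.97, 10.07 and 10.06 in the controls, at 10.01 to 10.43 in adjacent liver and at 9.46 to 10.26 in tumours, of which those of mice 90, 81 and 123 lay below the controls, at 9.46, 9.65 and 9.83. Over the 6 tumour mice its SD was 0.31, at the 70.8 percentile of all genes. The difference was 0.12 (SE 0.17) between adjacent and control liver and -0.25 (SE 0.14, 95% interval -0.56 to 0.05, adjusted p = 0.429) between tumour and adjacent liver. Without adjacent 1931 the first was 0.056, and without tumour 90 the second was -0.16; quantile normalization gave 0.049 and -0.17, array weights -0.15 and the fixed block of 4 mice -0.12 for the second. Over the 6 tumour mice Cideb and Plin3 ran in opposite directions, with r = -0.884; over all 14 mouse values r was -0.767.

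Cidea, a CIDE protein of brown fat and of fatty liver, gave a weak signal, which was above 4.45 on 1 of 16 arrays. Controls were at 3.49, 3.26 and 3.33. Adjacent liver was highest in mouse 1931, at 4.44, and lowest in mouse 124, at 3.36. Of the tumours, mouse 81 had 4.86 and mouse 93 had 4.24, and the other 6 tumours lay between 3.36 and 3.66. The differences from control were 0.43 (SE 0.31) in adjacent liver and 0.46 (SE 0.30, adjusted p = 0.564) in tumours; without adjacent 1931 the former was 0.27, and without tumour 81 the latter was 0.26.

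Against control, then, tumours had 3 of the 10 genes with an unadjusted p under 0.05 and a higher value (Plin2, Plin3 and Cidec), against 5.65% of all genes, and in the same 3 every tumour mouse lay above every control, against 2.11%. The median difference of the 10 was 0.12, against -0.04 over all genes. The 45 correlations between these genes over the 14 mouse values, which share arrays and group differences, had a median of 0.313, and 36 were above 0. G0s2 and Fitm1 had r = 0.741, Plin5 and Pnpla2 0.759 and Plin3 and G0s2 -0.701; over the 6 tumour mice these were 0.787, 0.774 and -0.817.

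Genes whose values ran most like those of Plin2, Cidec and Pnpla2 were sought among 2427 genes with an SD of at least 0.5 over the 14 mouse values. Nearest to Plin2 were Wdr73 (r = 0.784), Fgf21 (0.775), a liver hormone of fasting, and Slc6a9 (0.722), a glycine transporter. Nearest to Cidec were Gpat3 (0.816), an acyltransferase of triglyceride synthesis, Rdh18-ps (0.807) and Wdr73 (0.772). Nearest to Pnpla2 were Mmp7 (0.898), Alas1 (0.82), the first enzyme of haem synthesis, and Gde1 (0.809). Over the 6 tumour mice alone these values were 0.264, 0.759 and 0.72 for Plin2, 0.88, 0.582 and 0.702 for Cidec and 0.952, 0.973 and 0.83 for Pnpla2. The lists over tumours alone differ, except that Mmp7 and Alas1 were among the nearest 3 of Pnpla2 there too. The 6 tumour values are among the 14, so this is not a second observation. Each gene was picked as among the highest of 2427, so the r values are a description.

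The rest of lipid storage was taken from lists of textbook genes, with 0 members called in any list or comparison. Of 13 other lipolysis enzymes and cofactors the median difference was 0.20 between adjacent and control liver and -0.40 between tumour and adjacent liver, where 2 had an unadjusted p under 0.05 with a higher and 4 with a lower value, against 6.95% and 8.32% of all genes. Lipe, hormone-sensitive lipase, was at -0.06 (SE 0.12) between tumour and adjacent liver, and Mgll, which cleaves monoglycerides, at -1.07 (SE 0.28, adjusted p = 0.0929). Mgll was at 0.69 (SE 0.33) between adjacent and control liver. The cofactor Abhd5, which activates the lipase of Pnpla2 and is named after its value was seen, was at 0.41 (SE 0.19, adjusted p = 0.306) in tumours against adjacent liver.

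Of 19 other droplet proteins the medians were 0.02 and -0.12 in the same 2 comparisons, with 3 higher and 3 lower in tumours at an unadjusted p under 0.05, against the same 6.95% and 8.32%. Plin1, the perilipin of fat cells, was at -0.07 (SE 0.14) and Fitm2, the broadly expressed FIT protein, at -0.18 (SE 0.21) between tumour and adjacent liver. The caveola protein Cav1, named after its value was seen, was at 1.63 (SE 0.31, adjusted p = 0.0544). Of 14 genes of triglyceride synthesis the medians were 0.17 and -0.08, with 3 higher and 1 lower in tumours than in adjacent liver at that unadjusted p. Gpam, which starts glycerolipid synthesis, was at 0.01 (SE 0.26) and Gpat3 at 0.35 (SE 0.33) between tumour and adjacent liver.

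Of 14 genes of fatty acid uptake and VLDL export the medians were 0.09 and -0.01. Cd36, a fatty acid receptor, was at 0.58 (SE 0.61) between adjacent and control liver and 0.04 (SE 0.51) between tumour and adjacent liver. Slc27a2, a fatty acid transporter, was at 0.20 (SE 0.11) and -0.22 (SE 0.09). Between tumour and adjacent liver 2 of the list were higher and 3 lower at an unadjusted p under 0.05, against 6.95% and 8.32% of all genes. Among them, named after their values were seen, were Lpl at 2.75 (SE 0.66) and Slc27a5 at -0.93 (SE 0.22), both with a limma adjusted p of 0.0825. Of 20 genes of PPARs and other regulators the medians were 0.41 and -0.29, with 5 of the 20 higher in adjacent liver than in control at an unadjusted p under 0.05, against 1.61% of all genes. Cyp4a14, a fatty acid hydroxylase induced by PPARs and named after its value was seen, had the widest differences, 3.21 (SE 0.95) and -3.27 (SE 0.79, adjusted p = 0.0825). Ppara, the receptor that drives fatty acid oxidation, was at 0.37 (SE 0.26) and -0.20 (SE 0.22). Pparg, the receptor of fat storage and of Cidec expression in fatty liver, was at 0.83 (SE 0.42) and 0.18 (SE 0.35), and at 1.01 (SE 0.41, adjusted p = 0.325) between tumour and control. The lists before the regulators had fewer genes higher in adjacent liver than in control at an unadjusted p under 0.05. These were 0 of 13 lipolysis genes, 0 of 19 droplet proteins, 1 of 14 of triglyceride synthesis and 0 of 14 of uptake and export. Of the droplet proteins 1 was lower at that p, a count given without the share of all genes lower there, so it is not read further.

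Between tumour and control the medians of these 5 lists were -0.09, -0.03, 0.21, 0.01 and 0.06 in the order given. At an unadjusted p under 0.05, 1 lipolysis gene was higher and 2 lower, 2 droplet proteins were higher and 2 lower, 3 genes of triglyceride synthesis were higher and 1 lower, 2 of uptake and export were higher and 1 lower, and 3 regulators were higher and 1 lower. Over all genes 5.65% were higher and 6.88% lower at that p. The lists overlap with the comparisons of the 10 genes in their samples, so they are values set side by side.

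Markers of cells that also hold these proteins were set beside them. The mean of 10 adipocyte markers was 5.227, 5.02 and 5 in the controls and ranged over 4.86 to 5.08 in adjacent liver and 4.85 to 5.19 in tumours, with 3 to 6 of the 10 above 4.45 on an array. Adipoq, Lep and Adig were above 4.45 on 0 arrays, Retn on 1, Aqp7 on 2, Plin1 on 5 and Slc7a10 on 13. Fabp4, Lipe and Car3 were above it on 16. Adipoq was at 3.16 or less, with a difference of 0.24 (SE 0.11) between adjacent and control liver. Fabp4, also made by endothelial cells and macrophages and named after its value was seen, was at 1.98 (SE 0.46, adjusted p = 0.077) between tumour and adjacent liver. Car3, likewise named after its value was seen, was at -1.22 (SE 0.51, limma adjusted p = 0.262) there. The mean of the adipocyte list thus holds opposite differences of its members. Among 7 brown adipocyte markers, Ucp1, Cox8b, Dio2, Zic1 and Otop1 were above 4.45 on 0 arrays; the list's mean ran from 4.36 to 4.86 in controls, 4.52 to 4.82 in adjacent liver and 3.23 to 4.75 in tumours, and Elovl3, which liver also makes, was at -3.997 (SE 1.15, adjusted p = 0.124) between tumour and adjacent liver.

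Of 10 macrophage markers, Cd68 was at 0.94 (SE 0.49) and Adgre1 at 0.24 (SE 0.53) between tumour and adjacent liver, and the list was split, with a median of -0.06: Csf1r, Clec4f, Marco, Vsig4 and Timd4 lay below 0, from -2.52 for Vsig4 to -0.36 for Csf1r, and Cd14 (3.16, SE 0.78), Gpnmb (2.06) and Trem2 (0.35) above it. The list's mean ran from 5.39 to 7.91 in controls, 5.69 to 6.73 in adjacent liver and 5.81 to 6.68 in tumours. Of 9 stellate cell markers, cells that store retinyl esters in droplets, Lrat was at -1.06 (SE 0.30, adjusted p = 0.123) and Reln at 0.52 (SE 0.54). This list was also split, with a median of -0.01. Hgf (-0.98), Dcn (-0.66), Colec11 (-0.32) and Des (-0.01) lay below 0 as well, and Col1a1 (1.25), Pdgfrb (0.62) and Ngfr (0.03) above it. The list's mean ran from 6.04 to 6.14 in controls, 5.58 to 6.51 in adjacent liver and 5.53 to 6.61 in tumours. Alb was at 0.01 (SE 0.11) and Ttr at -0.12 (SE 0.08) among the hepatocyte markers. The part of these cells in the differences of the 10 genes was not tested.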

How the data were processed

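The deposited values are log2 expression values, 1 array per sample, and the submitters' processing notes name RMA and Partek without versions, roles or order. RNA was extracted with Trizol, amplified and biotin-labelled, per the labels' protocols; neither chip model nor probe design is given in the sources used here. Array medians lay between 4.37 and 4.50. Of 24479 probe sets, 1198 had no symbol in the platform annotation (which can be old) and were left out of tests; where a symbol had 2, the brighter was used, which left 23279 genes.

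Groups came from the titles. The 3 groups were fitted together with limma (version 3.58.1, R 4.3.3), using lmFit, then eBayes with its variance trend on intensity, no block, and Benjamini-Hochberg adjustment over all genes; intervals are 95% intervals of that fit. The script was checked on simulated data. Control, adjacent and tumour samples came from numbered mice, so p-values measure the spread between mice. That spread is pooled over the 3 groups, so SEs between adjacent and control liver also hold the spread of tumours. With only these 2 groups fitted, the SE of Fitm1 was 0.515 against 1.03. The SE was smaller for all members but Plin4 (0.503 against 0.454) and Cidec (0.652 against 0.648). The labels give no scan date or other batch. It is not known whether 1931 and 93 were one animal. By title, 4 mice gave both tissues; the 2 tissues' deviations from the group means correlated at 0.0789 on average in these mice (0.0349 to 0.0998). The members and the gene lists were chosen with earlier results of these data known. Named are all 10 members, of each other list the called genes or else the first 2 present, and the 3 genes most like Plin2, Cidec and Pnpla2. Others are marked, or are given with the rest of their list. Sensitivity settings are listed in the closing section.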

Additional observations from a re-analysis of the deposited data

Results flagged for a closer look

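Plin2 of adjacent liver of mouse 124 was 9.46, with the next lowest adjacent value at 10.11; the gap was 0.788 of the group's range, a sample far from the other 4. It was the 1 value singled out in 20 groups of adjacent or tumour mice, and such a test singles out about 1 group in 20 by chance. Mouse 124 also had the lowest adjacent values of Cidec (4.81), G0s2 (8.26) and Fitm1 (6.87), whereas its tumour had Plin2 at 10.21 and Cidec at 6.82.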

How the results depend on the processing

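Of the 10 genes, 0 were called in each comparison under every setting run: quantile normalization, centring each array on its median, keeping 12787 genes that exceeded the overall median on 3 or more arrays (9 of the 10; Cidea was lost, so it has no value there), no intensity trend, array weights, only the 2 groups compared, 8 separate tumours, only the unnumbered tumour of mouse 121, the mean of probe sets, the mouse as a random or fixed replicate block, and leaving out the adjacent, tumour or control value of 1 mouse at a time, the other tissue of a mouse that gave both staying in. Over the 30 member differences and 727 alternative values, 692 kept their sign and stayed uncalled and 35 changed sign, 21 of them with such a value left out; all 35 were of differences of at most 0.10 in size in the reported fit, and the cause was not tested. With the mouse as a fixed replicate block in the 4 paired mice G0s2 had a tumour difference of -0.85 and the count of called members was 0; the random replicate block, with a within-mouse correlation of 0.0732, changed no call of a member. The count over all genes was far less stable: the 36 between tumour and adjacent liver became 0 with the fixed block, 206 with the random block and 442 with array weights, and ran from 5 without adjacent 123, adjacent 124 or tumour 123 to 743 without tumour 93. The 6 between tumour and control ran from 0 without control 12 to 242 without tumour 93.

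Sign changes with all values kept were as follows. Adjacent minus control, Plin3 was -0.0099 under quantile normalization. Tumour minus adjacent, Cidea and Cidec were -0.0086 and -0.0087 with median centring, and Cidea was -0.088 with array weights, -0.026 with 8 separate tumours and -0.0093 with the random block. Tumour minus control, Plin4, Plin5 and G0s2 were 0.079, 0.042 and 0.093 with array weights and 0.023, 0.046 and 0.028 with 8 separate tumours, and Plin5 and G0s2 were 0.034 and 0.024 with the random block.

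With 1 value left out in turn, these differences ranged as follows: Plin3 adjacent minus control from -0.035 to 0.072; tumour minus adjacent, Plin2 from -0.10 to 0.13, Cidea from -0.18 to 0.19 and Cidec from -0.47 to 0.33; tumour minus control, Plin4 from -0.35 to 0.13, Plin5 from -0.20 to 0.15 and G0s2 from -0.37 to 0.23.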
